A study of Mus musculus with 6 samples.

Results

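The 10 genes described here mark pigment cells and the retinal pigment epithelium: Tyr, Tyrp1, Dct, Pmel, Mlana, Slc45a2, Oca2, Mitf, Rpe65 and Ttr. They were chosen by name as markers of pigment tissue that can be carried over with a dissected retina, and each was read by 1 transcript cluster, a group of probes that covers a transcript, out of 19938 genes that had such a cluster to themselves. The arrays carried RNA from retinae of newborn mice at postnatal day 0 on the C57BL/6NTac background: 3 Meg2 knockout and 3 Meg2 wild-type samples. Ptpn9 is the gene of Meg2, a protein tyrosine phosphatase. Per the labels the 2 retinae of each animal were pooled, and no label describes the knockout allele. All samples were labelled as retina, and the labels do not say how the pigment epithelium and choroid were treated at dissection.

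The retina is a neural tissue without pigment cells of its own. It lies against the retinal pigment epithelium, a layer of pigmented cells derived from the neuroectoderm that recycles the visual chromophore and engulfs shed photoreceptor discs, and behind that layer the choroid holds melanocytes that come from the neural crest. Both kinds of pigment cell make melanin inside melanosomes: the transcription factor MITF turns on the pigment genes, PMEL forms the fibrils on which melanin is laid down, tyrosinase and its relatives carry out the chemistry, and membrane transporters set the conditions inside the organelle. In bulk tissue, fewer cells of a type and less RNA per cell cannot be told apart.

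Values are normalised log2 signals, and every difference is knockout minus wild type. The array medians lay between 7.84 and 7.91. Ptpn9, the targeted gene, read 9.31, 9.58 and 9.28 on the knockout arrays, against 10.05, 9.93 and 9.94 on the wild-type arrays, so the labels and the transcript ran the same way. Its fold was 0.67, with an adjusted p of 0.437 (limma), so even the targeted gene did not pass correction with 3 arrays a group. Of the 20 neural retina markers looked for, 18 had a cluster of their own, and their mean log2 signal lay between 10.72 and 10.83 on the knockout arrays and between 10.75 and 10.82 on the wild-type arrays. Arrays with the same replicate number shared their Xist and Y-linked pattern. Replicate 1 had Xist at 12.58 in knockout retinae and 12.73 in wild-type retinae with the Y-linked gene Eif2s3y at 5.08 and 5.49, replicate 3 had Xist at 6.26 and 6.52 with Eif2s3y at 10.03 and 9.39, and replicate 2 carried both Xist (12.54 and 12.55) and Eif2s3y (7.66 and 7.76). The labels nevertheless give 1 animal per array for replicate 2 as for the others.

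The comparison asked how much pigment tissue signal each retina carried and whether knockout retinae differed from wild type. No gene of the 10 passed correction: limma called 0 of 10 at an adjusted p under 0.05, where it called 0% of the 23410 tested clusters. At an unadjusted p under 0.05, 1 of 10 was higher in the knockout and 0 were lower, beside 1.69% of tested clusters higher, 1.74% lower and 3.43% in either direction. The adjusted p of each of the 10 genes was 0.9995 (limma). The differences lay between -0.083 for Mitf and 0.28 for Ttr, with a median of 0.043, while the median over all tested clusters was 0.0012. Of the 10 genes 7 lay above 0, where 50.7% of tested clusters did. Pmel, Ttr and Tyrp1 were high on the knockout replicate 1 array. Of the 10 genes 2, Tyr and Ttr, were higher in the knockout within all 3 replicate numbers, beside 16.5% of tested clusters.

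**Figure D1:**
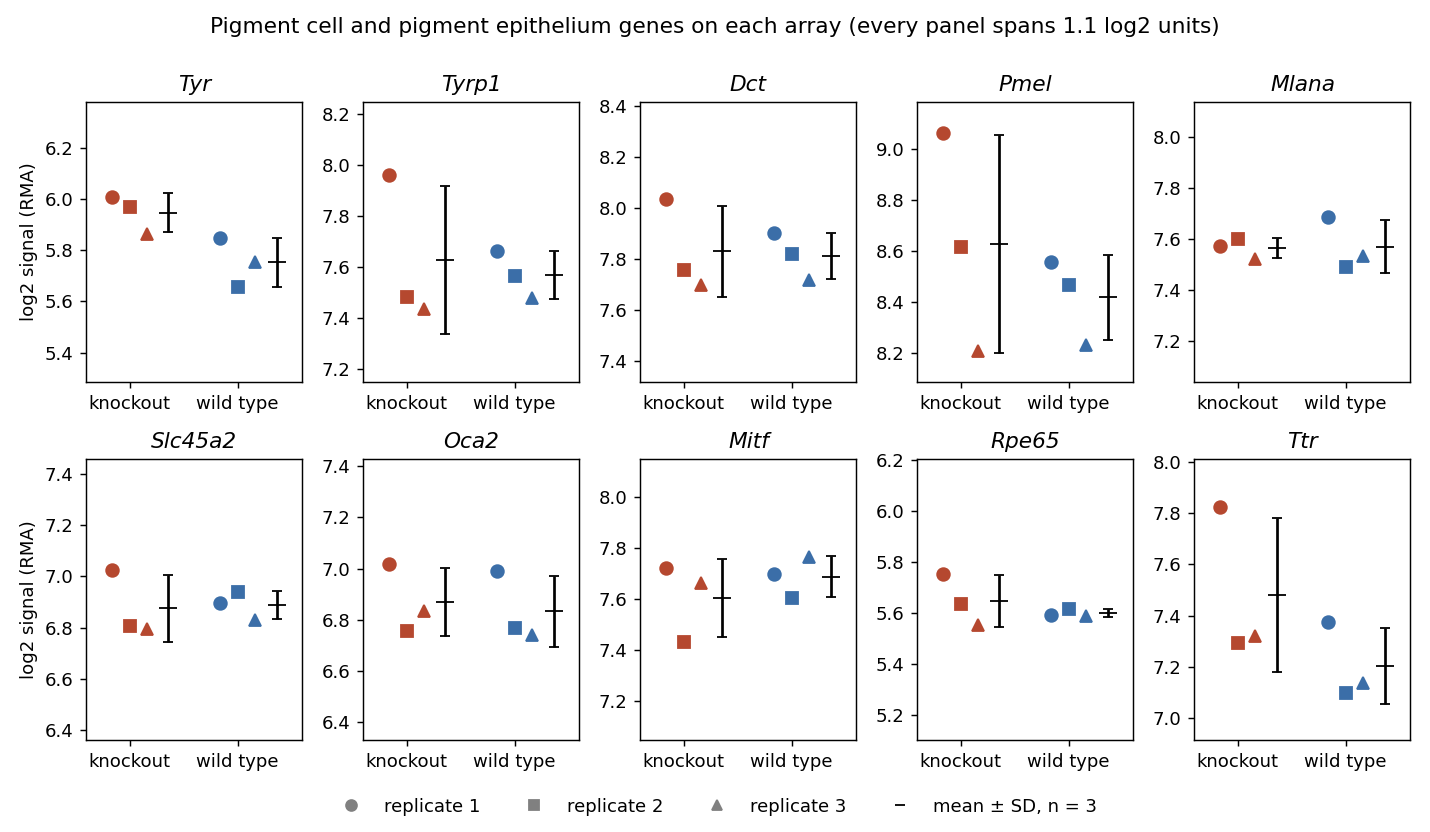
Log2 signal of the 10 genes on each array, with knockout arrays (red) left of wild-type arrays (blue), 1 point shape per replicate number, and bars for mean ± SD (n = 3); every panel spans the same number of log2 units. Knockout replicate 1 is the highest array for 8 of the 10 genes, and only Tyr has knockout arrays that all lie above the wild-type arrays.

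Tyrosinase (Tyr) catalyses the first and rate-limiting step of melanin synthesis. It read 6.01, 5.97 and 5.86 on the knockout arrays, against 5.85, 5.66 and 5.76 on the wild-type arrays. Its mean of 5.85 lay at percentile 12.5 of tested clusters, and how much of so dim a signal is background was not tested. The groups did not overlap, but the lowest knockout and the highest wild-type array were almost level; groups did not overlap in 8.43% of tested clusters, and in 4.08% with the knockout higher. The difference of 0.19 (SE 0.071, 95% interval 0.032 to 0.36) is a fold of 1.14, with an unadjusted p of 0.0242 (limma), which did not survive adjustment. Tyr was higher in the knockout within each of the 3 replicate numbers, by 0.16, 0.31 and 0.11, which 16.5% of tested clusters were.

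Tyrosinase-related protein 1 (Tyrp1) acts later in the pathway that gives black-brown eumelanin. Its knockout arrays read 7.96, 7.48 and 7.44, against 7.66, 7.56 and 7.48 on the wild-type arrays. Knockout replicate 1 was the highest of all arrays while the other knockout arrays lay at the low end of the wild-type range or below it, so the groups overlapped. The difference was 0.057 (SE 0.13, 95% interval -0.24 to 0.35), and without knockout replicate 1 it was -0.11.

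Dopachrome tautomerase (Dct) converts dopachrome on the way to eumelanin and is an early marker of melanoblasts and of the pigment epithelium. It read 8.03, 7.76 and 7.70 in knockout retinae and 7.90, 7.82 and 7.72 in wild-type retinae. The order of the arrays was close to that of Tyrp1, with both replicate 1 arrays highest. The difference was 0.018 (SE 0.094, 95% interval -0.20 to 0.23), and without knockout replicate 1 it was -0.084.

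The 3 enzymes belong to a family of metal-binding enzymes. In pigment cells MITF binds a sequence called the M-box, an extended E-box, near the start sites of these 3 genes. The stretches of 160 bases directly before the annotated starts are shown because these enzymes share this known regulator. The sequences are RefSeq's on GRCm38.p6, read 5′ to 3′ on the gene's strand, with the letters AGTCATGTG or their core CATGTG in capitals (either strand was searched, and every AGTCATGTG holds a CATGTG).
Tyr, chr7:87493513-87493672, minus strand: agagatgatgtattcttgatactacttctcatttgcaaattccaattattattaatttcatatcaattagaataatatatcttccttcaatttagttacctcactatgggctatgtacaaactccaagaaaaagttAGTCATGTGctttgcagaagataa
Tyrp1, chr4:80834053-80834212, plus strand: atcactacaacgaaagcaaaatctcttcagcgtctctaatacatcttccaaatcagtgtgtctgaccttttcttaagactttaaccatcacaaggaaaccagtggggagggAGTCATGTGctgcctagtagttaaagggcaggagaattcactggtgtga
Dct, chr14:118052247-118052406, minus strand: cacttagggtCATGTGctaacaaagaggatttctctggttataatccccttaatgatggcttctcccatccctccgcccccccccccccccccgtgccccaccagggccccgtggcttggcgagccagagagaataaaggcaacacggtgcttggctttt

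The 9 letters AGTCATGTG began 24 bases before the start in Tyr and 49 bases before it in Tyrp1, and stood in 0.274% of 32851 promoter windows of 300 bases (250 before the start to 50 after it). The core CATGTG began 150 bases before the Dct start, with a further match at 232 bases, and stood in 14.2% of the windows. Rpe65 and Oca2 had 1 core match each, at 239 and 186 bases before the start. The 3 windows of Mitf held neither. Of the 10 genes, 6 were searched, and Pmel, Mlana, Slc45a2 and Ttr were not. A match describes these letters only.

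Pmel, the structural protein of melanosome fibrils, varied most over the arrays, with a range of 0.85. It read 9.06, 8.62 and 8.21 in the knockout, against 8.56, 8.47 and 8.23 in the wild type. In each genotype replicate 1 was highest and replicate 3 lowest, and the knockout arrays lay on both sides of the wild-type arrays. Knockout arrays averaged 8.63 ± 0.43, and wild-type arrays 8.42 ± 0.17 (SD, n = 3 each). The difference of 0.21 (SE 0.19, 95% interval -0.21 to 0.63) rested on single arrays: without knockout replicate 1 it was -0.0070, and without knockout replicate 3 it was 0.42. Without both replicate 1 arrays it was 0.0625.

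Mlana encodes MART-1, a small melanosome membrane protein that is required for PMEL function. Its arrays lay close together, as did those of Rpe65, at 7.57, 7.60 and 7.52 in knockout retinae and 7.69, 7.49 and 7.53 in wild-type retinae. The difference was -0.0049 (SE 0.068, 95% interval -0.16 to 0.15). Mlana thus did not share the high value that Pmel had on knockout replicate 1.

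Slc45a2 and Oca2 encode transport proteins of the melanosome membrane that raise its pH, and mutations in either cause oculocutaneous albinism. Slc45a2 read 7.03, 6.81 and 6.79 in the knockout, against 6.90, 6.94 and 6.83 in the wild type, a difference of -0.013 (SE 0.076, 95% interval -0.19 to 0.16). Oca2 read 7.02, 6.76 and 6.83 in the knockout, against 6.99, 6.77 and 6.74 in the wild type, a difference of 0.037 (SE 0.092, 95% interval -0.17 to 0.25). In both genes the groups overlapped and knockout replicate 1 was highest, although for Oca2 the wild-type replicate 1 array was nearly level with it.

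Mitf, the regulator of the melanin genes, was read at 7.72, 7.43 and 7.66 on the knockout arrays, against 7.70, 7.60 and 7.76 on the wild-type arrays. Its highest array was wild-type replicate 3 and its lowest knockout replicate 2, so Mitf did not follow Pmel or Tyrp1 from array to array. The difference was -0.083 (SE 0.086, 95% interval -0.28 to 0.11), and without knockout replicate 2 it was 0.0035. A second Mitf cluster, which the choice of the brighter cluster left out, averaged 3.89 over all arrays with a difference of -0.029.

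Rpe65 and Ttr stand outside the melanin pathway. RPE65 is the retinoid isomerase of the visual cycle in the pigment epithelium, and transthyretin (Ttr) carries thyroxine and retinol-binding protein and is made in the eye by the pigment and ciliary epithelia. Rpe65 read 5.75, 5.64 and 5.55 in the knockout, against 5.59, 5.62 and 5.59 in the wild type. Its mean of 5.62 lay at percentile 10.5 of tested clusters, a dim signal whose background share was not tested either. The wild-type arrays differed by very little and lay inside the knockout range, with a difference of 0.049 (SE 0.066, 95% interval -0.10 to 0.20).

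Ttr showed the largest difference of the 10 genes. It read 7.83, 7.29 and 7.32 on the knockout arrays, against 7.37, 7.10 and 7.13 on the wild-type arrays. The groups overlapped, because wild-type replicate 1 lay above knockout replicates 2 and 3. Within replicate numbers Ttr was higher in the knockout each time, by 0.45, 0.19 and 0.19. The difference of 0.28 (SE 0.14, 95% interval -0.043 to 0.60) is a fold of 1.21, with an unadjusted p of 0.0816 (limma). When the replicate number entered the fit as a block, the SE was 0.066 and the unadjusted p 0.00443, with an adjusted p of 0.514 (limma), so 2 of the 10 genes, Tyr and Ttr, lay under 0.05 before adjustment in place of 1. The blocked fit placed 8.81% of tested clusters under that level and 0.00427% under an adjusted p of 0.05. Without knockout replicate 1 the Ttr difference was 0.10, and without both replicate 1 arrays it was 0.19.

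**Figure D2:**
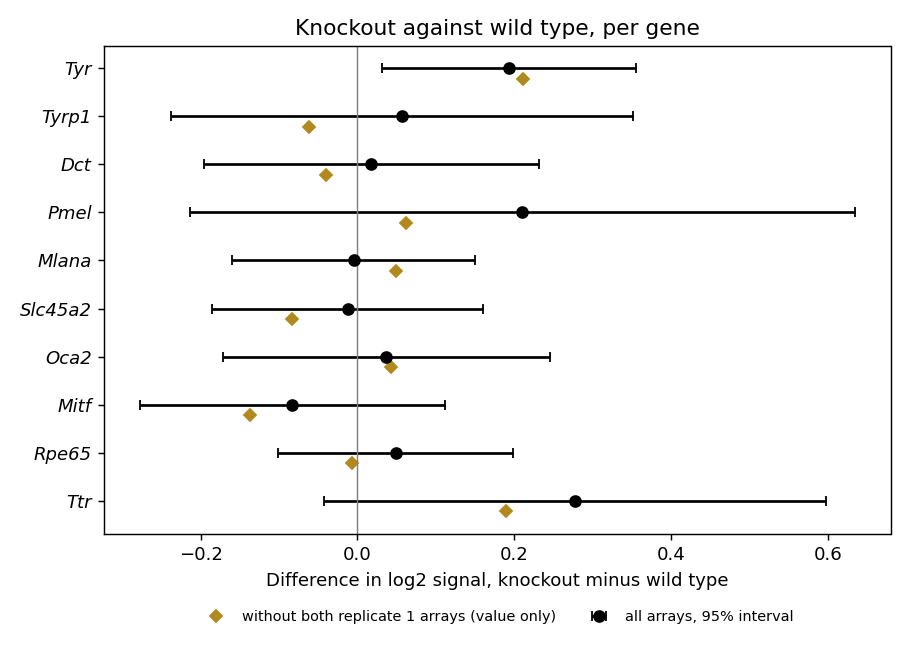
Difference in log2 signal, knockout minus wild type, for each gene: black points with 95% intervals from limma on all arrays, and diamonds for the value without both replicate 1 arrays. The intervals of 9 of the 10 genes span 0, and those of Pmel and Ttr are the widest.

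Seen array by array, the mean log2 signal of the 7 melanin genes (Tyr, Tyrp1, Dct, Pmel, Mlana, Slc45a2 and Oca2) was 7.53, 7.28 and 7.19 in the knockout, against 7.36, 7.24 and 7.18 in the wild type. The knockout averaged 7.33 ± 0.17 and the wild type 7.26 ± 0.092 (SD, n = 3 each), a difference of 0.071. That difference was smaller than the spread within either genotype. It was -0.025 without knockout replicate 1 and -0.046 when the median of the 7 genes stood in for their mean. Replicate 1 was also the highest wild-type array, and without both replicate 1 arrays the difference was 0.026. Within replicate numbers 1 to 3 it was 0.16, 0.041 and 0.0098. The mean of Rpe65 and Ttr was 6.79, 6.46 and 6.44 in the knockout, against 6.48, 6.36 and 6.36 in the wild type, a difference of 0.16, or 0.050 without knockout replicate 1. Without both replicate 1 arrays that difference was 0.091, and within replicate numbers 1 to 3 it was 0.31, 0.11 and 0.075. The melanin mean spanned 0.34 over the arrays.

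Knockout replicate 1 was the highest array for 8 of the 10 genes, and a replicate 1 array of either genotype for 9 of them. In all tested clusters these shares were 21.5% and 35.8%, and in the 11705 clusters below the median signal of 8.51 they were 37% and 57.3%. Of the 10 genes 9 lay below that median signal, and Pmel, at 8.52, lay just above it. The median of all dim clusters, those below that signal, on knockout replicate 1 stood 0.070 above the mean of the other arrays. After cyclic loess, a scaling chosen to remove differences that follow signal strength, that median was 0.017 and knockout replicate 1 was highest for 5 of the 10 genes. Under that scaling knockout replicate 1 was highest for 18.5% of all tested clusters and for 23.9% of dim clusters.

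**Figure D3:**
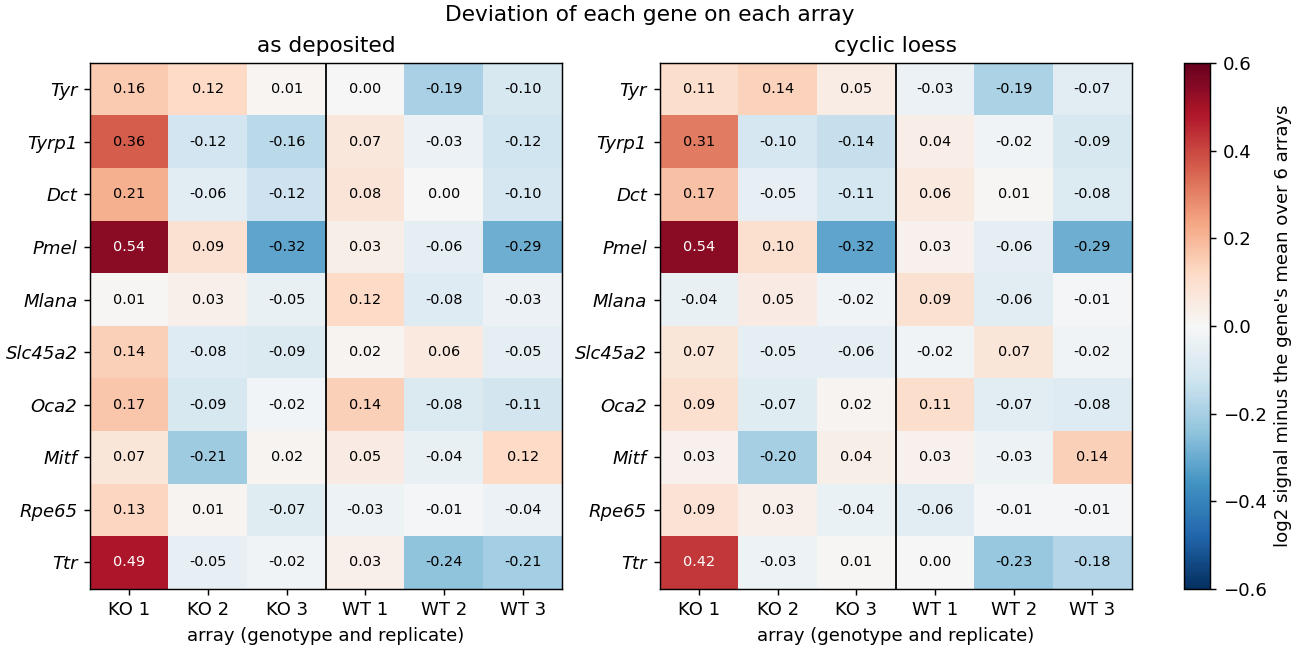
Log2 signal minus the gene's mean over the 6 arrays, for each gene (rows) and array (columns, knockout left of wild type), as deposited and after cyclic loess. Pmel, Ttr and Tyrp1 on knockout replicate 1 have the largest positive values under either scaling, and Mlana and Mitf stay near 0 there.

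The sizes differed far more than the order. On knockout replicate 1, Pmel stood 0.65 above the mean of the other arrays, a fold of 1.57, and Ttr stood 0.58 above it, a fold of 1.50. Ranked by this excess over all 23410 tested clusters, which is a description of 1 array made after its values were seen, Pmel came 5 and Ttr 9 from the top. Tyrp1, at 0.43 (a fold of 1.35), came 53, and Dct, at 0.25 (a fold of 1.19), came 979. After cyclic loess the excess was 0.65 for Pmel, 0.51 for Ttr, 0.37 for Tyrp1 and 0.21 for Dct, with ranks 5, 14, 73 and 924. The other 6 genes lay within the bulk of dim clusters by this measure. Oca2, Tyr, Slc45a2, Rpe65, Mitf and Mlana stood 0.20, 0.19, 0.17, 0.16, 0.089 and 0.0081 above the other arrays, and 15.9%, 17.9%, 21.4%, 25.5%, 44.3% and 67.9% of clusters below the median signal stood higher.

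**Figure D4:**
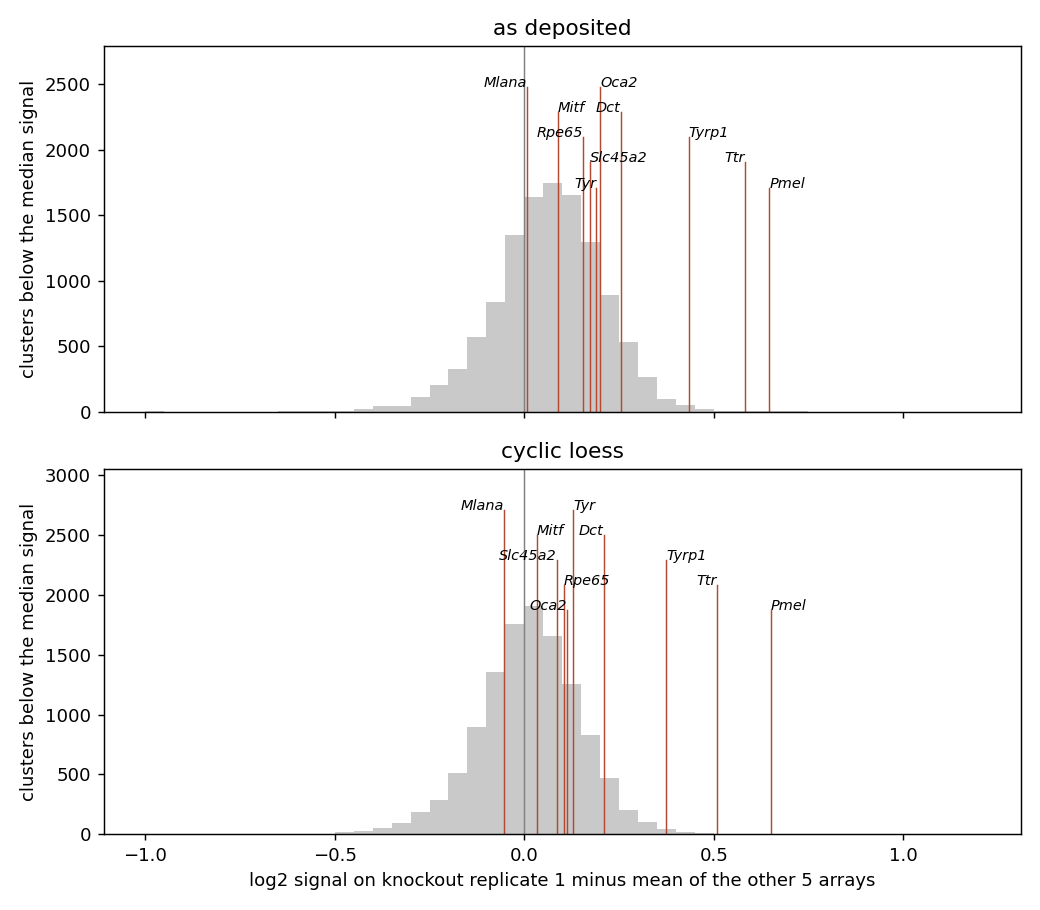
Number of clusters below the median signal (grey bars, bins of log2 units) by their log2 signal on knockout replicate 1 minus the mean of the other 5 arrays, as deposited (upper) and after cyclic loess (lower), with red lines for the 10 genes. Pmel, Ttr and Tyrp1 lie in the far right tail, and the other 7 genes lie within the body of the bars. Pmel, with a mean signal of 8.52, lies just above the median and is not itself counted in the bars.

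Markers of other tissues around the retina were read beside the pigment genes, and their part in the pigment values was not tested. The 13 measured genes of periocular mesenchyme and choroid stroma, of 14 listed, were highest on knockout replicate 1 in 7 cases (53.8%), the 14 genes of ciliary, corneal and choroid plexus epithelium in 6 (42.9%) and the 14 measured lens genes, of 15, in 6 (42.9%), beside the 37% of clusters below the median signal. Below that median lay 10, 11 and 11 of these genes. The endothelial list had 5 of 12 genes highest on knockout replicate 1 (41.7%), and the Schwann and glial precursor list 2 of 6 (33.3%). The neural retina list had 0 of 18, beside 5.95% of clusters above the median signal, where most of its genes lay. In these last lists 9, 3 and 2 genes lay below that median. The summed linear signal of the mesenchyme genes ranged from 3016 to 3204 in knockout retinae and from 2887 to 3020 in wild-type retinae. The ciliary sums, of which Mab21l2 made up 58.1%, ranged from 8759 to 9479 in knockout retinae and from 8742 to 9102 in wild-type retinae. The lens sums ranged from 3067 to 3579 in knockout retinae and from 2893 to 3256 in wild-type retinae. No marker is at 0, since the scale gives every cluster a signal.

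The mean lens and endothelial signals were highest on knockout replicate 3, while the melanin genes and the pair Rpe65 and Ttr were highest on knockout replicate 1. Cryaa and Cryba1 weighed on the lens mean: they read 8.70 and 7.32 on knockout replicate 3, against averages over all arrays of 7.80 and 6.29. Of the 14 lens genes 6 were highest on knockout replicate 1 and 4 on knockout replicate 3, and of the 12 endothelial genes 5 and 6. On knockout replicate 3 the lens mean stood 0.17 and that of the 12 endothelial genes 0.24 above the average of all arrays, while the melanin mean stood 0.11 below it (-0.11). On knockout replicate 1 the values were 0.084 for lens, 0.14 for endothelium and 0.23 for melanin genes. After cyclic loess they were 0.19, 0.25 and -0.083 on knockout replicate 3 and 0.044, 0.099 and 0.18 on knockout replicate 1. The means of the mesenchyme and ciliary lists were, like the melanin mean, highest on knockout replicate 1. They stood 0.11 and 0.094 above the average of all arrays there (0.079 and 0.066 after cyclic loess). Bgn in mesenchyme and Bmp4 in the ciliary list weighed on them, at 0.45 and 0.67 above the other arrays. The neural retina mean was 0.064 below its average on knockout replicate 1 (-0.064, and -0.039 after cyclic loess).

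Between the genotypes, the mean of the endothelial genes differed by 0.20, with 8.09 ± 0.16 on knockout arrays and 7.89 ± 0.076 on wild-type arrays (SD, n = 3 each), which is more than the 0.071 of the melanin genes and the 0.16 of Rpe65 and Ttr. Of the 12 endothelial genes 11 lay above 0 and 9 were higher in the knockout within all 3 replicate numbers, beside 50.7% and 16.5% of tested clusters. For these genes limma called 0 at an adjusted p under 0.05 and 3 higher at an unadjusted p under 0.05, beside 0% and 1.69%. Kdr, the exception below 0, made up 52.8% of the endothelial sums, which ranged from 6409 to 7853 in knockout retinae and from 6509 to 7305 in wild-type retinae. The mean differed by 0.13 for lens, 0.078 for ciliary, corneal and choroid plexus epithelium, 0.058 for mesenchyme and -0.0028 for neural retina. Single genes weighed on these means: Cryaa (0.53) and Cryba1 (0.54) in lens, Bmp4 (0.42) and Wfdc1 (0.34) in the ciliary list, Bgn (0.59) in mesenchyme. The median differences of these lists were 0.064, 0.043 and 0.030, with 3 of 14, 5 of 14 and 6 of 13 genes below 0. The 6 measured Schwann and glial precursor genes, of 8, summed to between 20626 and 23478 in knockout retinae and between 19441 and 20063 in wild-type retinae, of which Fabp7, a gene that retinal progenitors and glia also express, made up 67.1%. Without Fabp7 the sums overlapped, at 6536 to 7933 in knockout retinae and 6439 to 6757 in wild-type retinae. The mean of these 6 genes differed by 0.068 and was not raised on knockout replicate 1 (0.013 above the average of all arrays, and -0.0042 after cyclic loess).

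**Figure D5:**
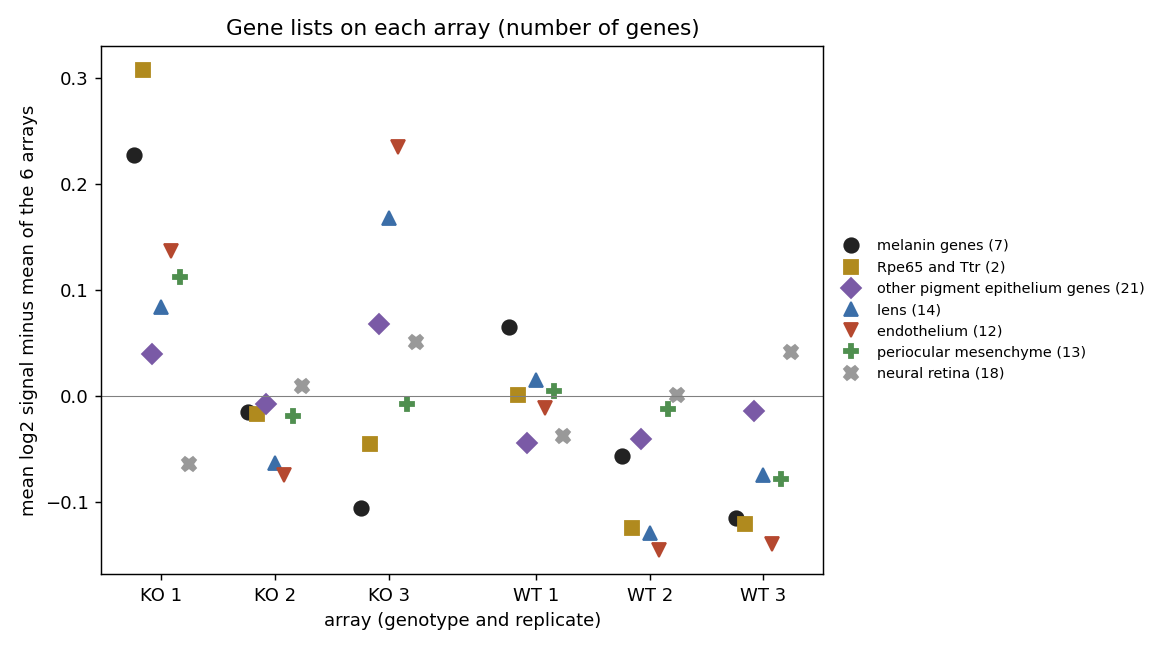
Mean log2 signal of gene lists on each array minus their mean over the 6 arrays, with knockout arrays left of wild-type arrays and 1 marker per list. The means of the melanin genes, of Rpe65 and Ttr and of periocular mesenchyme are highest on knockout replicate 1, at 0.23, 0.31 and 0.11. Those of the lens and endothelial genes are highest on knockout replicate 3, at 0.17 and 0.24, and Cryaa and Cryba1 weigh on the lens mean there.

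Genes that form, move and signal in pigment cells were then read from 3 lists with 61 measured genes of 63, of which limma called 0 at an adjusted p under 0.05; at an unadjusted p under 0.05, 1 was higher and 2 were lower in the knockout, or 6 in either direction in the blocked fit. Over all tested clusters these shares were 1.69%, 1.74% and, with the block, 8.81%, so the counts lay near the background. Knockout replicate 1 was the highest array for 17 of the 61 genes (27.9%): for 5 of 26 in melanosome formation, 4 of 14 in neural crest melanocytes and signalling and 8 of 21 in other pigment epithelium genes, where the shares of all and of dim clusters were 21.5% and 37%. The 26 genes of melanosome formation and trafficking, which include the HPS, BLOC-1 and AP-3 complexes, act on lysosome-related organelles in many cells. Of them 10 lay above 0 and 16 below, with a median difference of -0.017 and 0 at an unadjusted p under 0.05. The genes with the highest signal were the AP-3 subunit gene Ap3d1, at -0.0060 (SE 0.055), the BLOC-1 subunit gene Bloc1s1, at 0.042 (SE 0.066), and the tethering complex gene Vps33a, at 0.073 (SE 0.056). The mean of the list spanned 0.044 over the arrays and was highest on wild-type replicate 3.

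The 14 genes of neural crest melanocytes and pigment signalling had 9 above 0 and 5 below, with a median of 0.023. Snai2, a transcription factor of the neural crest, read 8.19, 8.13 and 8.23 in the knockout, against 8.33, 8.40 and 8.45 in the wild type, a difference of -0.21 (SE 0.061), with an unadjusted p of 0.00792 (limma). Ednrb, the endothelin receptor that melanoblasts need and that glia also carry, read 9.85, 9.93 and 9.53 in the knockout, against 10.04, 9.99 and 9.96 in the wild type. Its difference was -0.23 (SE 0.098; unadjusted p 0.048, limma). In both genes the knockout arrays lay below all wild-type arrays, which 4.35% of tested clusters did. The transcription factor gene Tfap2a and the receptor gene Kit, both also expressed by retinal neurons, differed by 0.089 (SE 0.060) and -0.010 (SE 0.067).

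The list of 23 other pigment epithelium genes had 21 measured, with 15 above 0, 6 below and a median of 0.054. Its mean was highest on knockout replicate 3, at 0.068 above the average of all arrays, and stood at 0.040 on knockout replicate 1 (0.075 and 0.019 after cyclic loess). Rbp4, the plasma retinol-binding protein that travels with transthyretin, showed the largest difference of all listed pathway genes. It read 7.39, 7.72 and 8.31 in the knockout, against 7.03, 7.30 and 7.17 in the wild type, and the groups did not overlap. The difference of 0.64 (SE 0.20) had an unadjusted p of 0.0103 and, like those of Snai2 and Ednrb, an adjusted p of 0.9995 (limma), and without knockout replicate 3 it was 0.39. Unlike Ttr, Rbp4 was highest on knockout replicate 3. The genes with the highest signal, Otx2, a transcription factor of photoreceptors and pigment epithelium, Rdh10, a retinol dehydrogenase, and Trpm3, a cation channel that hosts a microRNA, differed by -0.0012 (SE 0.073), 0.090 (SE 0.065) and 0.095 (SE 0.061).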

How the data were processed

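The authors deposited log2 signals of transcript clusters on Affymetrix Mouse Gene 1.0 ST arrays, made with Affymetrix Expression Console and RMA, per the submitters' processing notes, which also name Transcriptome Analysis Console. Versions, build and annotation release are not named there. RMA forces arrays to 1 distribution and compresses differences of dim clusters.

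A platform annotation gave 21789 of 35557 clusters 1 gene and 1621 several; the other 12147 stay unnamed. Entrez identifiers of 21698 matched the GRCm38.p6 gene table, changing 0 symbols. Each gene was read by its single-gene cluster of highest mean. The 23410 named clusters were fitted with limma 3.58.1 (R 4.3.3) without a block or dim filter and adjusted by Benjamini-Hochberg at 0.05; p-values are two-sided. The fit was tested on simulated data. Replicates are separate samples per the labels, and 3 arrays a group limit precision. Exact permutation of 3 against 3 cannot go below 0.1.

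Replicate numbers come from the sample titles. Deviations from group means correlated at 0.476, 0.485 and 0.455 between same-numbered arrays, above the 0.1 taken as pairing, so a blocked fit by replicate number was run. Sex pattern and replicate number cannot be told apart. The genes and lists were chosen with earlier results of these data known. Named list genes were those at an unadjusted p under 0.05 and the 3 of highest signal per list; Rbp4, Snai2 and Ednrb came by the first rule. Other genes were to be matched by pattern only if the melanin mean spanned 0.5, which it did not. Python 3.11.15, pandas 2.3.3 and matplotlib 3.10.9 were used.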

Additional observations from a re-analysis of the deposited data

How the results depend on the processing

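The alternatives tried were cyclic loess, median centring, array weights, a variance trend, a filter at the 25th percentile of signal (which leaves out Tyr, Oca2 and Rpe65), every row of the table, all clusters of a gene, the replicate block and each array left out; the fit without both replicate 1 arrays and the scalings of the highest-array count were added after seeing the data. Under each of them limma called 0 of the 10 genes and 0 listed genes at an adjusted p under 0.05, and the lowest adjusted p of any of the 10 was 0.514, with the replicate block. At an unadjusted p under 0.05, the 1 gene of 10 was 0 with the filter, 2 with the replicate block, 2 without both replicate 1 arrays, and 0 to 2 with single arrays left out; the 3 listed genes were 6 with the replicate block and 2 to 5 with single arrays left out. With single arrays left out the melanin mean difference ranged from -0.025 to 0.14 and that of Rpe65 and Ttr from 0.050 to 0.23. The sign of 8 of the 10 genes changed under at least 1 alternative, and Tyr and Ttr kept theirs. The ranges with single arrays left out were -0.11 to 0.15 for Tyrp1, -0.084 to 0.083 for Dct, -0.0070 to 0.42 for Pmel, -0.045 to 0.053 for Mlana, -0.088 to 0.028 for Slc45a2, -0.038 to 0.12 for Oca2, -0.14 to 0.0035 for Mitf and -0.0038 to 0.097 for Rpe65. Without both replicate 1 arrays the differences that changed sign were Tyrp1 at -0.062, Dct at -0.040, Mlana at 0.049 and Rpe65 at -0.0071. In the same fit Tyr was 0.21, Pmel 0.0625, Slc45a2 -0.083, Oca2 0.042, Mitf -0.14 and Ttr 0.19, each with its sign kept. With array weights Dct was -0.011. Knockout replicate 1 was the highest array for 8 genes with median centring and 5 with cyclic loess, beside 30.4% and 23.9% of clusters below the median signal. The causes were not tested beyond the arrays left out.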

Other observations

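Some genes that were not among the 10 were also high on knockout replicate 1, and they are named after their values were seen. Bmp4, a growth factor of the dorsal retina and ciliary body, read 8.96 on that array, 8.40 and 8.48 on the other knockout arrays, and 8.03, 8.19 and 8.35 in the wild type, an excess of 0.67 over the other arrays. Optc, which encodes the vitreous proteoglycan opticin, read 9.60 there, 8.99 and 9.30 on the other knockout arrays, and 8.68, 9.03 and 9.15 in the wild type (excess 0.57). In the lists of pigment genes, Gpnmb, a melanosome glycoprotein that macrophages also make, had an excess of 0.48, Kcnj13, a potassium channel of the pigment epithelium, 0.47, and Stra6, the receptor for retinol-binding protein, 0.35. Other members of these lists were lower there than on the other arrays, such as Mreg (-0.28), Slc7a11 (-0.21), Lyst (-0.20), Sulf1 (-0.17), Best1 (-0.16) and Rbp4 (-0.12). The same end of the ranking held genes with no known place in the eye, such as the keratin-associated protein gene Krtap10-10, with an excess of 0.56.

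The platform annotation lists Pmel on 15 further clusters, each together with several other genes and always with the Y-linked gene Sly. These clusters name 8 to 9 genes each, their signals lay between 4.11 and 4.57 on all arrays, and they were not read as Pmel.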
